A study of Mus musculus with 7 samples.

Results

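The last steps of mitochondrial respiration were examined in nucleus pulposus, the gel-like core of the intervertebral disc, as 45 nuclear genes of complex III, cytochrome c, complex IV and ATP synthase. They were all genes on the array whose symbol began with Uqcr, with Atp5, or with Cox, a digit from 4 to 8 and the letter a, b, c or i, together with Cyc1 and Cycs. This gave 9 genes of complex III, 1 of cytochrome c, 18 of complex IV and 17 of ATP synthase, out of 19505 named genes, each read by 1 feature. The rule used symbols alone and no measured value, though it was chosen with earlier results of these data known. Affymetrix mouse arrays carried 1 animal each: 3 mice without MCT4 in any tissue, a lactate exporter that Slc16a3 encodes, at 14 months of age (MCT4KO 1 to 3), and 4 wild-type mice at 13 months (WT 1 to 4). Nucleus pulposus from the lumbar and caudal discs of an animal was pooled into its sample. The knockout line was backcrossed for 10 generations to C57Bl/6N, and both genotypes came from heterozygous parents. The study's design text gives C57Bl/6N as the strain of MCT4KO and C57Bl/6 as that of WT, while every sample's strain tag reads C57BL/6, so genotype, age and named substrain cannot be told apart. In a bulk sample, fewer cells of a type and less RNA per cell cannot be told apart either.

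Complex III passes electrons from ubiquinol to cytochrome c, a small soluble carrier, and complex IV passes them from cytochrome c to oxygen. Complexes III and IV pump protons across the inner mitochondrial membrane, and ATP synthase lets them return through a rotating ring of c subunits to make ATP. Nucleus pulposus cells live in a disc with almost no blood supply, make much of their ATP by glycolysis and export the lactate, in part through MCT4. The subunits of these complexes that mitochondrial DNA encodes were not analysed here.

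Arrays had medians over all genes of 6.46 to 6.51 on the deposited log2 scale, and no pair was identical. Slc16a3 read 5.02, 4.98 and 4.47 in MCT4KO 1 to 3, against 13.55, 13.35, 13.61 and 13.40 in WT 1 to 4. The knockout values all lay below the median of the array's negative control features, a loss of at least 179.9-fold (limma adjusted p = 6.7e-09; exact two-sided permutation p = 0.0286, the smallest that 35 splits allow). Of 11 measured nucleus pulposus markers, Krt8, Krt18, Krt19, Car3, Cd24a and Acan read between 12.53 and 19.41 on every array, and Foxf1 and Car12 were at background in both groups. Col2a1, type II collagen, was the marker with an unadjusted p under 0.05: it read 10.08, 9.22 and 8.85 in MCT4KO 1 to 3, against 8.29, 8.10, 7.58 and 8.30 in WT 1 to 4, without overlap (change 1.32 ± 0.286; limma adjusted p = 0.088). The term at background is used here where no array of the group exceeded the median of its own negative controls, which lay between 5.91 and 6.08.

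No gene of the 45 was called different between MCT4KO and WT. In limma fitted over all genes, 0 members had a Benjamini-Hochberg adjusted p under 0.05, where 115 of all 19505 genes did (0.590%, made up of 0.118% higher and 0.472% lower in MCT4KO), and the smallest adjusted p of a member was 0.30. At an unadjusted p under 0.05 there were 2 members, Cox8c higher and Cox8b lower, or 4.44%, against 12.7% of all genes (5.76% higher and 6.90% lower). The animals of the groups did not overlap for 3 members, Uqcrq higher and Atp5b and Atp5k lower in MCT4KO, against 12.0% of all genes (5.66% higher and 6.37% lower). Over the members, 27 had a log2 change below 0 and 18 above, with a median of -0.06, beside a median of 0.02 over all genes. Few members were at background in both groups, while many of all genes were. Among genes that were not, 6625 of 11872 had a change below 0, with a median of -0.04. Of such members 26 of 42 did, with a median of -0.06.

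The precision of the arrays bounds what these changes could have been. The 95% interval of the log2 change, from limma's moderated standard error, lay inside -1 to 1, which is a 2-fold change either way, for 43 of 45 members (95.6%) and for 91.2% of all genes. It lay inside -0.5 to 0.5 for 31 members (68.9%) and for 38.7% of all genes. These counts include genes at background in both groups, whose intervals bound no change of RNA. Without them, 40 of 42 members and 87% of genes lay inside -1 to 1, and 28 of 42 members (66.7%) and 33.7% of genes inside -0.5 to 0.5. Cox8b and Cox8c were the members whose intervals crossed a 2-fold change. A change of any size that an interval holds remains possible. The intervals are for 1 gene at a time, and the test adjusted over all genes was stricter. Cox8b and Cox8c had intervals without 0 and were not called. Outside the set the same held for Higd1a (change 0.59, interval 0.26 to 0.92; limma adjusted p = 0.14). Changes beyond the reach of an interval could thus also go uncalled with these animals.

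**Figure D1:**
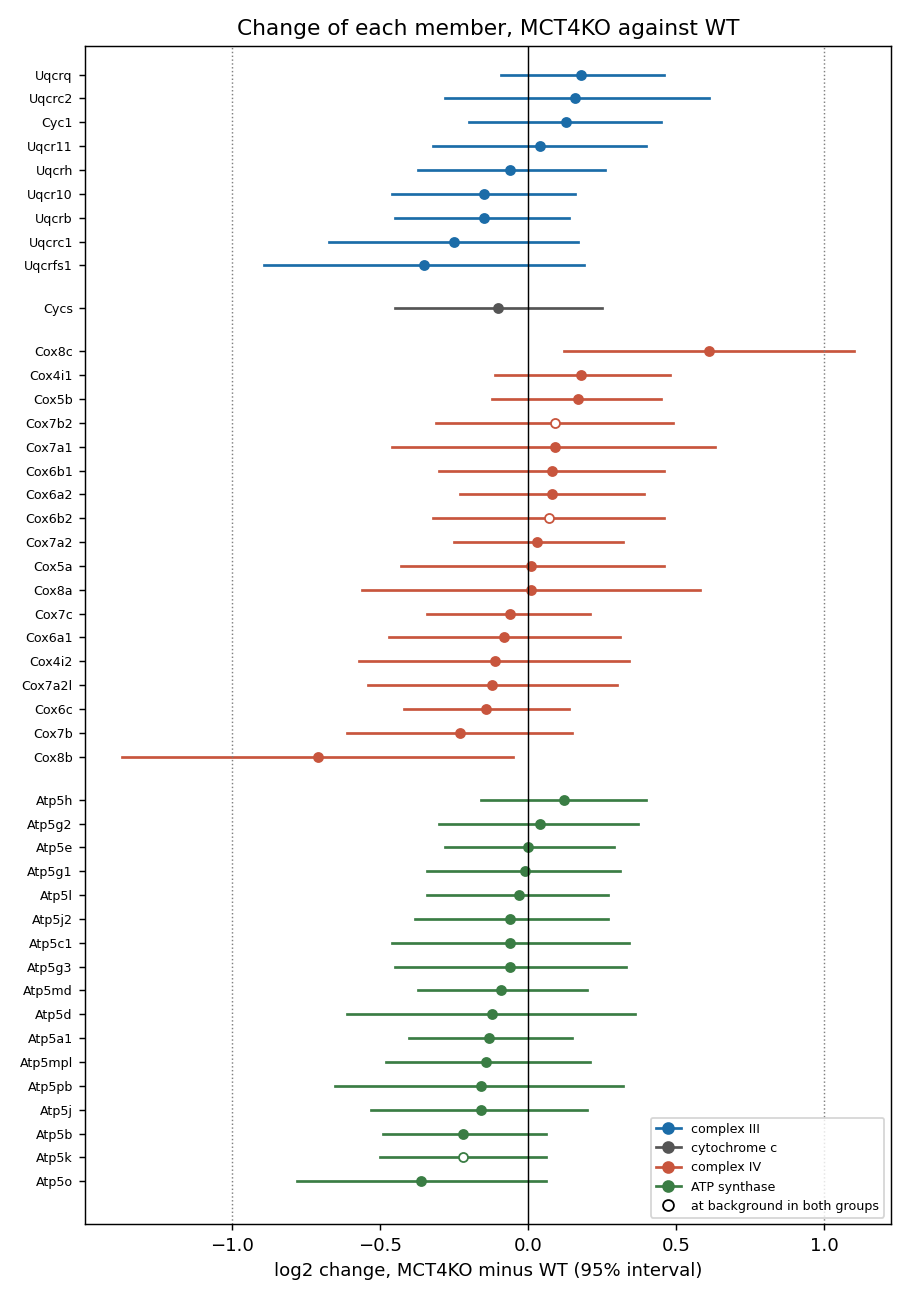
Log2 change of each of the 45 members (x axis, MCT4KO minus WT, with its 95% interval as a line), grouped by complex, with open circles for the 3 members at background in both groups and dotted lines at -1 and 1. All intervals except those of Cox8c and Cox8b include 0, and the remaining 43 lie inside the dotted lines.

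Complex III was represented by both of its large core proteins, the cytochrome c1 and iron-sulfur subunits that carry electrons, and its small accessory subunits. Of its 9 genes, 5 had a change below 0 and 4 above, with a median of -0.06, and the intervals ran from -0.89 to 0.61 at their widest. Uqcrc1, which encodes a core protein, read 9.0, 9.57 and 9.81 in MCT4KO 1 to 3, against 9.68, 9.77, 9.81 and 9.60 in WT 1 to 4. MCT4KO 1 was the lowest of the 7 animals and MCT4KO 3 the highest, so the groups overlapped. The log2 change was -0.25 ± 0.189 (SE; adjusted p = 0.61), and -0.02 without MCT4KO 1. Uqcrfs1, the Rieske iron-sulfur protein, read 9.42, 9.49 and 10.32 in MCT4KO 1 to 3, against 9.77, 10.35, 10.32 and 9.95 in WT 1 to 4. MCT4KO 1 and 2 lay below every WT animal and MCT4KO 3 inside the WT range, with a change of -0.35 ± 0.241 (adjusted p = 0.57), or -0.19 without MCT4KO 1 and -0.64 without MCT4KO 3. Both genes thus had their lowest reading in the same knockout animal.

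The other genes of complex III differed less. Cyc1, cytochrome c1, which hands electrons to cytochrome c, read 7.77, 7.99 and 8.05 in MCT4KO 1 to 3, against 7.79, 7.59, 8.0 and 7.86 in WT 1 to 4 (change 0.13 ± 0.145). Uqcrc2, the other core protein, read 8.70, 8.99 and 8.57 in MCT4KO 1 to 3, against 8.98, 8.24, 8.77 and 8.38 in WT 1 to 4 (change 0.16 ± 0.199). Both genes overlapped between the groups. Uqcrq, a small subunit, read 10.50, 10.71 and 10.57 in MCT4KO 1 to 3, against 10.42, 10.47, 10.34 and 10.41 in WT 1 to 4. Each knockout value was above each WT value, by little: the change was 0.18 ± 0.123 (adjusted p = 0.56). Uqcrb, Uqcrh, Uqcr10 and Uqcr11, further small subunits, had changes of -0.15, -0.06, -0.15 and 0.04. Cycs, cytochrome c itself, read 13.22, 13.43 and 13.05 in MCT4KO 1 to 3, against 13.40, 13.58, 13.23 and 13.12 in WT 1 to 4. The groups overlapped and the change was -0.10 ± 0.158 (adjusted p = 0.83).

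Complex IV had 18 genes, 7 with a change below 0 and 11 above, and a median of 0.02. Its nuclear subunits have a common form, and several also have further forms used in particular tissues. Cox4i1, the common form of subunit 4, read 13.58, 13.36 and 13.55 in MCT4KO 1 to 3, against 13.18, 13.37, 13.43 and 13.26 in WT 1 to 4. MCT4KO 1 and 3 were above every WT animal and MCT4KO 2 was within the WT range, at a change of 0.18 ± 0.131 (adjusted p = 0.59). Cox4i2, the other form of that subunit, is known from lung and as a gene that low oxygen induces. It read 13.89, 13.69 and 13.93 in MCT4KO 1 to 3, against 14.30, 13.58, 13.67 and 14.25 in WT 1 to 4. The WT animals fell into a high pair, WT 1 and 4, and a low pair, WT 2 and 3, with every knockout animal between the pairs and a change of -0.11 ± 0.203 (adjusted p = 0.85). Cox4i2 stood far above the array's control median in all 7 animals, unlike most of the other tissue-restricted forms.

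Subunit 8 held the largest differences of the whole set, in Cox8b and Cox8c, which both read low. The lowest readings were 6.19 for Cox8b in MCT4KO 3 and 6.14 for Cox8c in WT 4. The control medians of these arrays were 6.00 and 6.08. Cox8b, the form known from heart, skeletal muscle and brown fat, read 7.24, 6.53 and 6.19 in MCT4KO 1 to 3, against 7.01, 7.98, 7.43 and 7.02 in WT 1 to 4. MCT4KO 2 and 3 lay below every WT animal and MCT4KO 1 inside the WT range. The change was -0.71 ± 0.293 (95% interval -1.37 to -0.05; unadjusted p = 0.037; adjusted p = 0.36), and -1.0 without MCT4KO 1, -0.50 without WT 2 and -0.48 without MCT4KO 3. Cox8c, another form, described from testis, read 7.28, 7.25 and 6.65 in MCT4KO 1 to 3, against 6.92, 6.36, 6.36 and 6.14 in WT 1 to 4. MCT4KO 1 and 2 were above every WT animal, and MCT4KO 3 was below WT 1. The change was 0.61 ± 0.220 (95% interval 0.12 to 1.10; unadjusted p = 0.020; adjusted p = 0.30), and 0.50 without MCT4KO 1. Cox8a, the common form, read 13.35, 14.14 and 14.63 in MCT4KO 1 to 3, against 13.91, 14.13, 14.04 and 14.03 in WT 1 to 4. MCT4KO 1 was the lowest and MCT4KO 3 the highest animal, so that the group means of 14.04 ± 0.647 in MCT4KO (SD, n = 3) and 14.03 ± 0.0907 in WT (SD, n = 4) were almost equal while the knockout animals differed among themselves.

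Cox8b and Cox8a encode forms of the same subunit, and the stretches of 250 bases before their annotated starts are shown because these genes differed in how the animals varied. The sequences are RefSeq's on build GRCm38.p6, on the minus strand of chr7:140900447-140900696 for Cox8b and of chr19:7217617-7217866 for Cox8a, and capitals mark ACGTG, the core of the hypoxia response element that HIF proteins bind, on either strand.
Cox8b: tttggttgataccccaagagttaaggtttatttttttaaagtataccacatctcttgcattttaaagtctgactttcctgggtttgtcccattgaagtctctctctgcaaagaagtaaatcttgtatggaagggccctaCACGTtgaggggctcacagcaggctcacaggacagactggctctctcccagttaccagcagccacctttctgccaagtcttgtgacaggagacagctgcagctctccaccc
Cox8a: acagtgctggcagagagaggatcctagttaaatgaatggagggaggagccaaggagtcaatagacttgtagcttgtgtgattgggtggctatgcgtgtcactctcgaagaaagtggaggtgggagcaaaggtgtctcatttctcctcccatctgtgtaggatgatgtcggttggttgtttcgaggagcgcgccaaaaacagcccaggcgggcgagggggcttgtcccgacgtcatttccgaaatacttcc
The Cox8b window held the core once, with its first base 111 bases before the start, and the Cox8a window held none of the motifs searched. A match of letters is a description of the window and not a shown binding site.

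**Figure D2:**
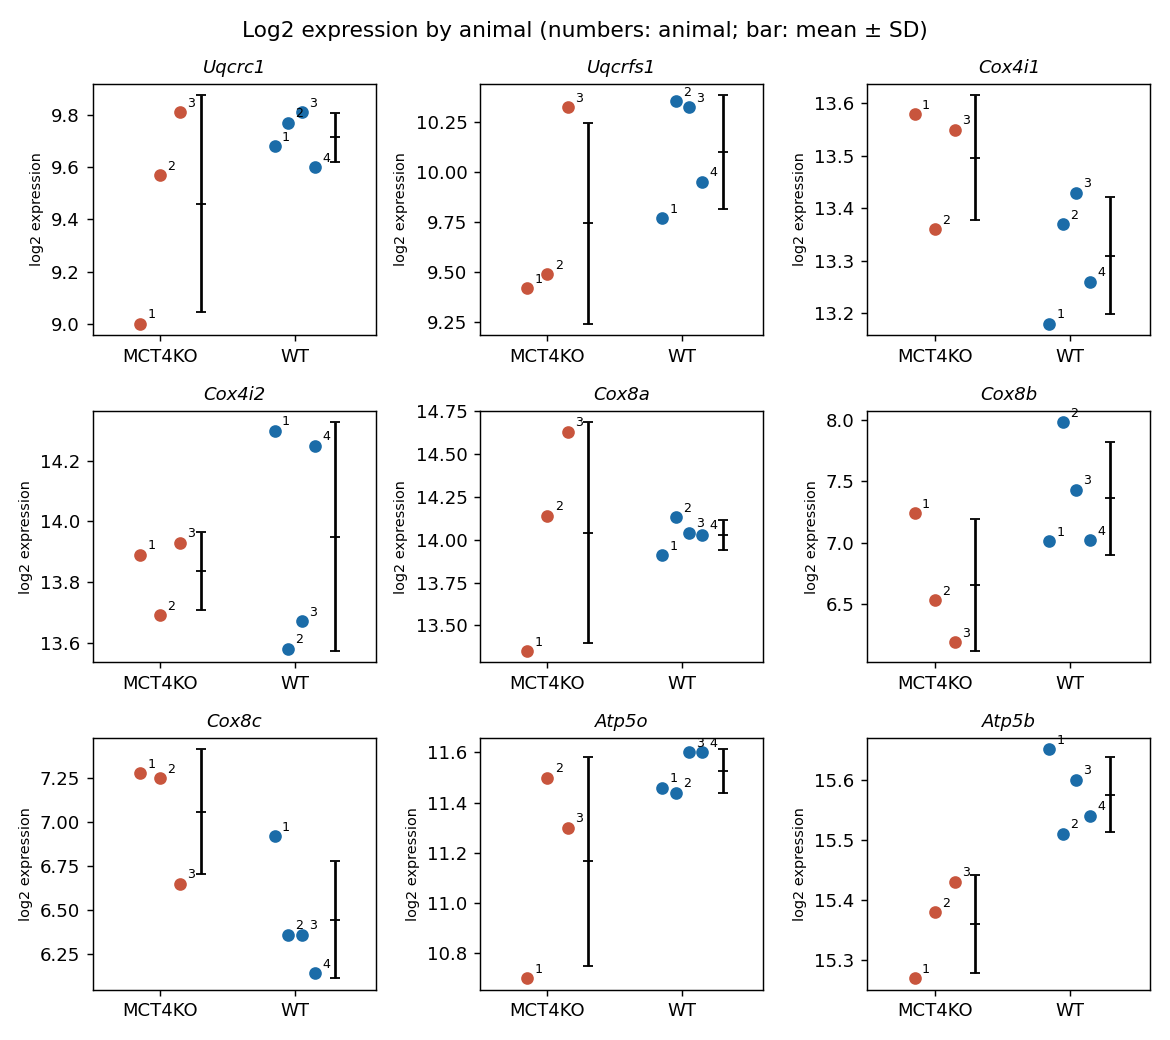
Log2 expression (y axis, own range for each gene) of 9 members in each animal, with MCT4KO at the left and WT at the right, numbers giving the animal and bars the mean ± SD of 3 MCT4KO or 4 WT animals. MCT4KO 1 is the lowest animal for Uqcrc1, Uqcrfs1, Cox8a, Atp5o and Atp5b, and for Cox4i1 and Cox8c it is the highest.

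The remaining tissue-restricted forms of complex IV were at or near background. Cox6b2 and Cox7b2, both known from testis, were at background in both groups, at 3.83 to 4.41 and 5.20 to 5.79 over the 7 animals, so no fold change is given. Cox6a2, a heart and skeletal muscle form, read 6.27, 6.14 and 5.94 in MCT4KO 1 to 3, against 6.06, 6.21, 5.89 and 5.98 in WT 1 to 4, and 3 of the 7 arrays were at or below their control median. Cox7a1, another muscle form, read 6.85, 6.4 and 7.26 in MCT4KO 1 to 3, against 6.88, 6.82, 6.23 and 7.06 in WT 1 to 4, with a change of 0.09 ± 0.243 that became -0.12 without MCT4KO 3 and -0.08 without WT 3. Of 15 skeletal muscle markers, 6 were at background in both groups, among them Myh4, Myh2 and Tnnc2, and Ckm, muscle creatine kinase, had 7.50, 7.23 and 7.10 in MCT4KO 1 to 3, against 6.93, 6.97, 6.91 and 6.76 in WT 1 to 4, higher in every knockout animal but not called (adjusted p = 0.31). The mean over the 15 markers was 6.01, 5.51 and 5.81 in MCT4KO 1 to 3, against 5.58, 5.56, 6.09 and 5.47 in WT 1 to 4. The brown fat gene Ucp1 was at background in both groups. Neutrophil and marrow markers averaged 5.89, 5.27 and 5.24 in MCT4KO 1 to 3, against 7.94, 10.27, 6.11 and 6.44 in WT 1 to 4. WT 2, the highest of them, was also the animal with the highest Cox8b reading. The other WT animals did not follow this order: WT 1, next in the markers, had the lowest WT reading of Cox8b (7.01). WT 3, lowest of the WT animals in the markers, had the next highest Cox8b reading after WT 2 (7.43). The part of neutrophil and marrow cells in the readings of Cox8b was not tested.

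The other common subunits of complex IV had 95% intervals that included 0. Those of Cox7b (-0.61 to 0.15) and Cox7a2l (-0.54 to 0.30) went beyond -0.5, and the rest lay inside -0.5 to 0.5. Cox5b, which binds zinc and sits on the matrix side, had a change of 0.17 ± 0.129, and Cox6b1, on the side facing cytochrome c, one of 0.08 ± 0.170. Cox6c and Cox7c, small membrane subunits, had changes of -0.14 ± 0.127 and -0.06 ± 0.123, and Cox7a2 one of 0.03 ± 0.128. Cox5a, the matrix-side partner of Cox5b, read 9.63, 10.37 and 10.46 in MCT4KO 1 to 3, against 10.11, 10.24, 10.11 and 10.10 in WT 1 to 4, which put MCT4KO 1 below and the other knockout animals above every WT animal. Its change was 0.01 ± 0.198, and 0.28 without MCT4KO 1. Cox6a1, a regulatory subunit, had -0.08 ± 0.175, and 0.12 without MCT4KO 1. Cox7b, a small membrane subunit, read 11.66, 12.19 and 12.31 in MCT4KO 1 to 3, against 12.38, 12.27, 12.30 and 12.19 in WT 1 to 4, a change of -0.23 ± 0.170 (adjusted p = 0.60), or -0.04 without MCT4KO 1. Cox7a2l, which is known to join complexes III and IV into supercomplexes, had -0.12 ± 0.189. MCT4KO 1 was again the lowest animal for Cox6a1, Cox7b and Cox7a2l.

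Most genes of ATP synthase had a change below 0, and this direction rested on 1 animal. Of its 17 genes, 14 had a change below 0 and 3 above, with a median of -0.09, beside -0.04 over all genes not at background in both groups. Without MCT4KO 1, 5 were below 0 and 12 above, with a median of 0.03. In MCT4KO 1 alone, 15 of the 17 genes (88.2%) read below every WT animal and none above. It was the lowest of the 7 animals for 14 genes (82.4%), against 19.7% of all genes. MCT4KO 2 had 3 genes below (17.6%) and 3 above every WT animal, and MCT4KO 3 had 4 below (23.5%) and 5 above. Of all 19505 genes, 26.6%, 21.4% and 21.9% read below every WT animal in MCT4KO 1 to 3, and 5479, 4596 and 4635 genes above. Among genes with a mean of at least 12, the shares below were 38.2%, 22.3% and 24.4%. The mean over the 17 genes was 12.33, 12.69 and 12.70 in MCT4KO 1 to 3, against 12.70, 12.63, 12.75 and 12.61 in WT 1 to 4, so MCT4KO 2 and 3 lay within the WT range.

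Atp5o, the subunit known as OSCP that ties the catalytic head to the stalk, had the largest difference of the enzyme. It read 10.70, 11.50 and 11.30 in MCT4KO 1 to 3, against 11.46, 11.44, 11.60 and 11.60 in WT 1 to 4. MCT4KO 2 was inside the WT range and the other knockout animals were below it, with a change of -0.36 ± 0.189 (adjusted p = 0.46), or -0.13 without MCT4KO 1. Atp5b, the catalytic beta subunit, read 15.27, 15.38 and 15.43 in MCT4KO 1 to 3, against 15.65, 15.51, 15.60 and 15.54 in WT 1 to 4. Every knockout animal was below every WT animal, though the change of -0.22 ± 0.121 did not pass the test (adjusted p = 0.48), and it was -0.17 without MCT4KO 1. Atp5a1, the alpha subunit that alternates with beta in the catalytic head, had -0.13 ± 0.123 and overlapped between the groups. Atp5c1, Atp5d and Atp5e, the gamma, delta and epsilon subunits of the rotating central stalk, had changes of -0.06, -0.12 and 0.00, or 0.14, 0.14 and 0.01 without MCT4KO 1.

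Atp5g1, Atp5g2 and Atp5g3 encode precursors of the same c subunit, which forms the proton-carrying ring. Atp5g2 read 15.67, 16.09 and 16.16 in MCT4KO 1 to 3, against 16.00, 15.85, 15.97 and 15.93 in WT 1 to 4, so that MCT4KO 1 was the lowest and the other knockout animals were the highest (change 0.04 ± 0.150). Atp5g1 and Atp5g3 had changes of -0.01 and -0.06 and were lowest in MCT4KO 1 as well. Atp5h, the d subunit of the outer stalk, was not lowest there: it read 14.33, 14.46 and 14.49 in MCT4KO 1 to 3, against 14.42, 14.22, 14.32 and 14.27 in WT 1 to 4 (change 0.12 ± 0.124; adjusted p = 0.72). Atp5pb and Atp5j, which encode the b subunit and coupling factor 6 of that stalk, had changes of -0.16 and -0.16, or 0.08 and 0.03 without MCT4KO 1. Among the small membrane subunits, Atp5j2, Atp5l, Atp5md and Atp5mpl had changes of -0.06, -0.03, -0.09 and -0.14. Atp5k, the e subunit, was at background in both groups, at 5.35 to 5.72 over the 7 animals, so its lower knockout values give no size of change.

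**Figure D3:**
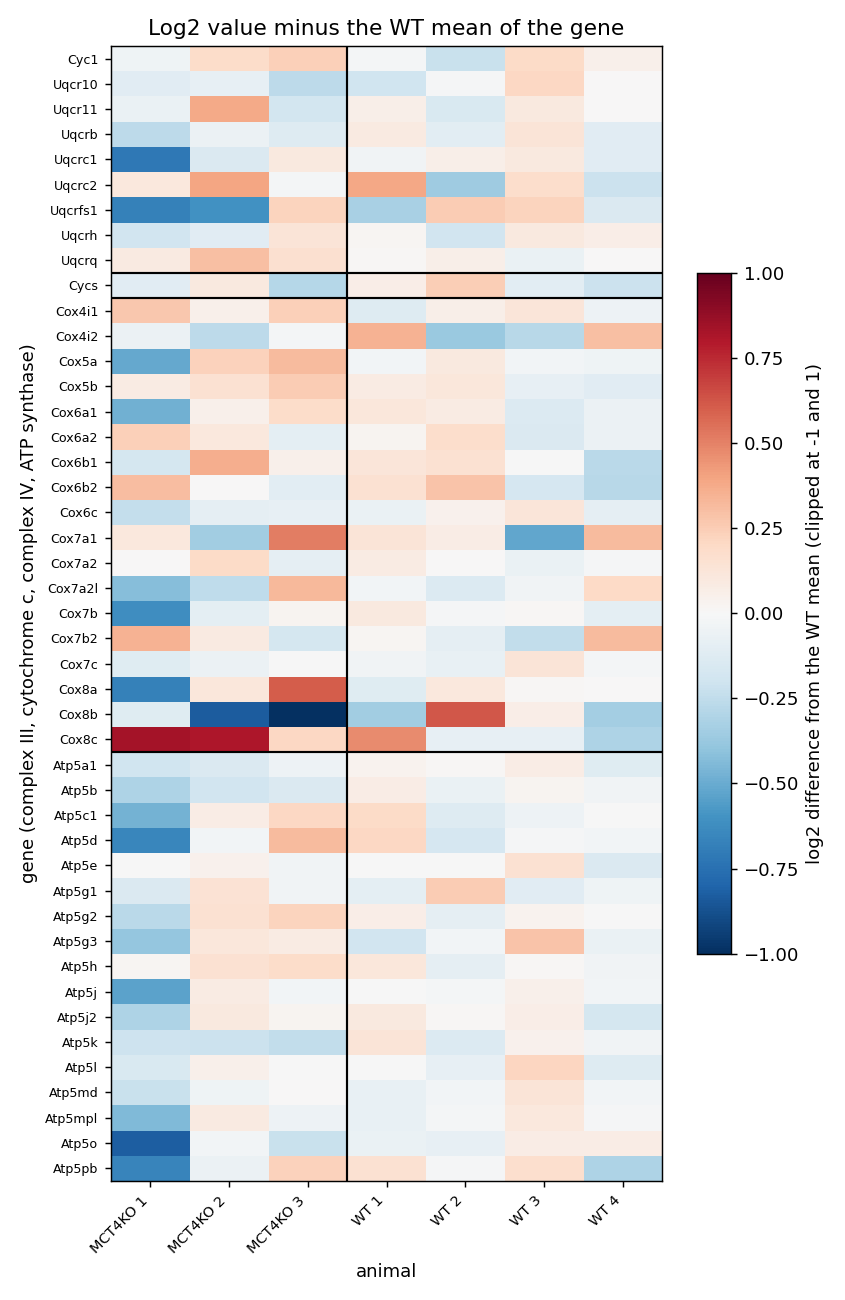
Log2 value of each of the 45 members (rows, in the order complex III, cytochrome c, complex IV and ATP synthase, parted by lines) in each of the 7 animals (columns, MCT4KO at the left), as the difference from the WT mean of the gene. The column of MCT4KO 1 is blue, that is lower, through most of ATP synthase, and the columns of MCT4KO 2 and 3 are not. In MCT4KO 1, 15 of these 17 genes were below every WT animal, against 26.6% of all genes.

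MCT4KO 1 was the lowest of the 7 animals for 24 of the 45 members (53.3%), against 19.7% of all genes and 27.3% of genes not at background in both groups. The complexes differed in this: it was 14 of 17 genes of ATP synthase (82.4%), but 3 of 9 of complex III (33.3%) and 7 of 18 of complex IV (38.9%). MCT4KO 2 was the lowest for 0 members and MCT4KO 3 for 6, against 12.2% of all genes for each of these animals. Genes with a mean of at least 12 over the 7 arrays were also counted, a limit chosen after the values were seen. Among them MCT4KO 1 was the lowest animal for 30.2% of all 1854 genes and for 18 of 26 members (69.2%). Quantile normalization gives every array the same distribution of values. After it, MCT4KO 1 was the lowest for 18 of the 45 members (40.0%) and 19.2% of all genes. By complex these were 2 of the 9 genes of complex III, 6 of the 18 of complex IV and 10 of the 17 of ATP synthase. Among the bright genes it was then the lowest for 12 of 26 members (46.2%) and 18.5% of all genes. An array quality weight estimated over all genes was also lowest for MCT4KO 1, at 0.638 against 0.922 to 1.30 for the other arrays. The part of array quality in the low readings of this animal was not tested. For complex I, the entry point of the chain, 46 genes had a symbol of Nduf followed by a, b, c, s or v. That pattern takes in subunits, but also Ndufaf symbols of assembly factors, and Ndufa4. Their median change was -0.03, or 0.06 without MCT4KO 1, which was the lowest animal for 16 of them (34.8%). Of the 46 genes 0 were called and 2 had an unadjusted p under 0.05, both lower, a share of 4.35% against 12.7% of all genes. The 4 subunits of complex II had a median of -0.06 and 0 genes called, and MCT4KO 1 was the lowest animal for 2 of them. It was also the lowest for 4 of 7 complex III assembly genes, 9 of 22 for complex IV and 3 of 6 for ATP synthase.

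**Figure D4:**
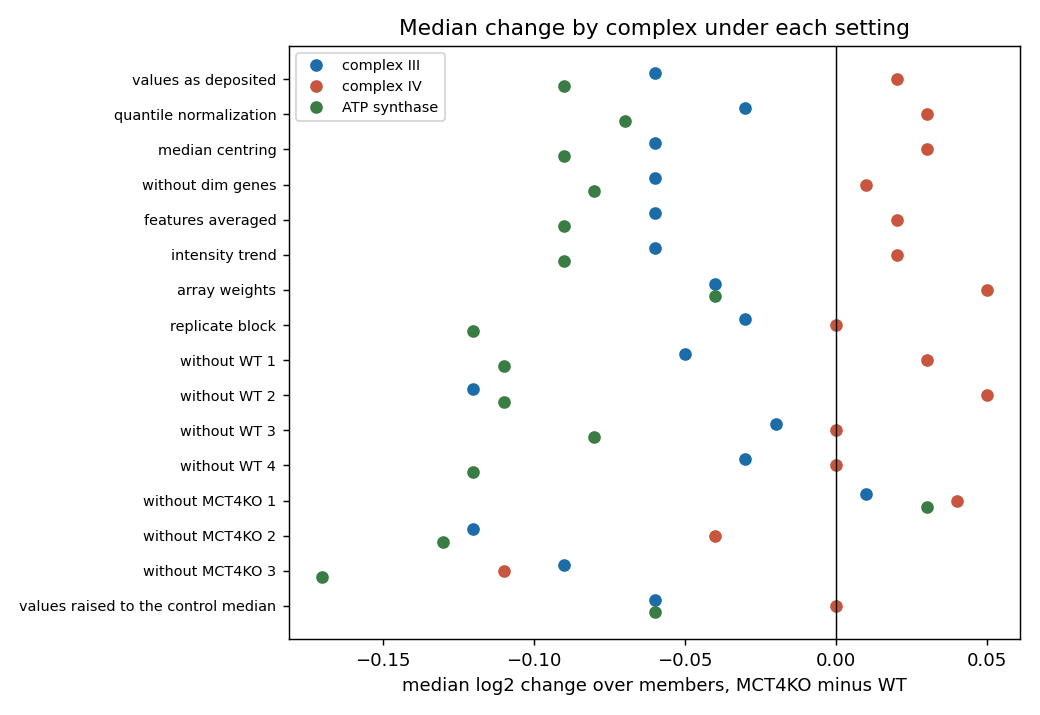
Median log2 change over the genes of complex III, complex IV and ATP synthase (x axis, MCT4KO minus WT) under each way of processing the values or leaving out an animal (y axis). The medians stay between -0.17 and 0.05, and those of complex III and ATP synthase are above 0 where MCT4KO 1 is left out, at 0.01 and 0.03.

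Genes that help build these complexes did not pass the test either. Of 7 complex III assembly genes 0 were called, and 0 had an unadjusted p under 0.05. The one with the largest change was Bcs1l, which inserts the iron-sulfur protein, at -0.49 ± 0.290 (adjusted p = 0.51). Of 22 measured complex IV assembly genes 0 were called and 3 had an unadjusted p under 0.05, a share of 13.6% that is close to the 12.7% of all genes. Higd1a, a hypoxia-inducible inner membrane protein that binds complex IV, read 15.07, 15.07 and 15.31 in MCT4KO 1 to 3, against 14.31, 14.57, 14.76 and 14.59 in WT 1 to 4. Every knockout animal was above every WT animal (change 0.59 ± 0.147; adjusted p = 0.14). Cox14, an early assembly factor of the largest complex IV subunit, read 6.07, 6.17 and 6.34 in MCT4KO 1 to 3, against 6.69, 7.02, 6.75 and 6.31 in WT 1 to 4. The groups overlapped by MCT4KO 3 and WT 4 alone (change -0.50 ± 0.176; adjusted p = 0.29). Lrpprc, which stabilises mitochondrial messenger RNA, read 6.90, 7.16 and 7.16 in MCT4KO 1 to 3, against 7.81, 7.46, 7.31 and 7.23 in WT 1 to 4 (change -0.37 ± 0.167; adjusted p = 0.39), with no overlap. Of 6 genes for ATP synthase assembly or inhibition 0 were called, and Atpif1, the inhibitor that stops the enzyme from running in reverse, had -0.04 ± 0.204. Ndufa4, a subunit of complex IV despite its name, also had -0.04 ± 0.176.

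The 250 bases before the annotated start were searched for letters bound by known regulators of respiratory genes, in the 34 members that RefSeq's promoter table (build GRCm38.p6) held. Matches were read on both strands, and a gene with several annotated starts counted once. The letters GCGCA, any base and then GCGC, a form of the NRF1 site, were in 5 of 34 members (14.7%) and in 6.19% of 15691 measured genes. CCGGAAG, letters of the site of ETS factors such as GABP, were in 8 members (23.5%) and 10.5% of measured genes. ACGTG was in 10 members (29.4%) and 20.6% of measured genes, and AAGATGGC, letters of the YY1 site, in 1 member (2.94%) and 1.78%. None of these letter strings contains another, and CACGTG, which reads the same on both strands, holds ACGTG on each. Cox6a1 and Atp5h, shown because they were the members with both NRF1 and ETS letters, carry them in capitals on the minus strand of chr5:115348959-115349208 and chr11:115419920-115420169.
Cox6a1: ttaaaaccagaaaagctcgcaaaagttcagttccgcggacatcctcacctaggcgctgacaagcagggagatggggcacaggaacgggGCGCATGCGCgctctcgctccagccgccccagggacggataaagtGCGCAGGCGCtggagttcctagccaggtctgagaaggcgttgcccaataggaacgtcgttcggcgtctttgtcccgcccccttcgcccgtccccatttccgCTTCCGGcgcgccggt
Atp5h: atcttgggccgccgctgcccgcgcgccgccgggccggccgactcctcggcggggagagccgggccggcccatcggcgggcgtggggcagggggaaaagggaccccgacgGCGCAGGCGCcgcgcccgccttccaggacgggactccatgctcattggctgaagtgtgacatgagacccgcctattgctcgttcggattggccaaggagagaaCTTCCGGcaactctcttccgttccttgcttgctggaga
In Cox6a1 the NRF1 letters began 162 and 117 bases before the start and the ETS letters 16 bases before it, and in Atp5h they began 141 and 38 bases before it. Cox6a1 was lowest in MCT4KO 1 and Atp5h was not, and neither was called.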

How the data were processed

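The authors deposited 1 log2 value per feature and array. Per the submitters' processing notes, Affymetrix Expression Console 1.4.1 was used. The sources used here do not give how probes were corrected, normalized and summarised. The log2 scale was read from the range of the values, which were used as deposited. Of 28846 features, 19572 carried 1 gene symbol in the platform annotation, giving 19505 genes, with the feature of highest mean kept for 55 genes with several. All gene IDs matched RefSeq's GRCm38.p6 table, used for symbols. The 5222 negative control features gave the background.

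MCT4KO was compared with WT in limma 3.58.1 (R 4.3.3; lmFit and eBayes, 7 arrays, no covariate, 9.66 moderated degrees of freedom), two-sided, adjusted over all genes. The fit was tested on simulated data. Members and lists were chosen with earlier results of these data known. The text gives values in every animal for Slc16a3, Cox4i1, Uqcrc1, Cycs, Cyc1 and members with an unadjusted p under 0.05. It also gives them for the 2 largest increases and decreases per complex above background, and for assembly genes with an unadjusted p under 0.05. Tissue-restricted forms are given likewise, except Cox6b2 and Cox7b2, which were at background and are given as ranges. Cox5a, Cox8a, Bcs1l, Atpif1, Ndufa4, Col2a1 and Ckm were added after their values were seen. Precision rests on how many animals there were, since arrays have no depth. Of the listed genes, 25 complex IV assembly genes had 22 matches and the list of subunits outside the symbol rule 1 of 4. The erythroid list had 2 of 8 matched, and its mean was 6.76, 6.67 and 6.71 in MCT4KO 1 to 3 and 7.26, 8.64, 6.87 and 6.68 in WT 1 to 4. Adipocyte and macrophage lists had medians of 0.13 and 0.03.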

Additional observations from a re-analysis of the deposited data

Results flagged for a closer look

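Cox5a, a subunit of complex IV, read 10.24 in WT 2 while the other WT animals read 10.10 to 10.11, a gap of 0.965 of the group's range that exceeds Dixon's critical value at the 95% level. Chance exceeds that critical value in about 1 of 20 groups, and 1 of the 46 genes tested exceeded it. The range of the WT animals was narrow, so the size of the gap is small on the log2 scale.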

How the results depend on the processing

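No member was called under any of the 14 alternatives, and the lowest adjusted p of a member in any of them was 0.18. The count of members at an unadjusted p under 0.05 ran from 1 to 2 with each animal left out. It was 3 under quantile normalization, with Cox8c and Uqcrq among them but not Cox8b, and 3 with an intensity trend, which took in Atp5b. The count of all genes called was 15 to 64 with each animal left out, lowest without MCT4KO 3 and highest without MCT4KO 2, against 115 with all. Slc16a3 kept its loss throughout (-8.75 to -8.48 with each animal left out). The median of complex IV was -0.11 to 0.05 with each animal left out, below 0 without MCT4KO 2 (-0.04) and without MCT4KO 3 (-0.11). The median of ATP synthase was -0.17 to 0.03 and that of complex III -0.12 to 0.01, each above 0 without MCT4KO 1. Of 264 alternatives of 19 named members, 254 kept direction and side of the threshold and 10 changed sign, all with values near 0. Cox6b2, at background, turned to -0.01 under quantile normalization and -0.02 with the replicate block. With each animal left out it ran from -0.05 to 0.16, Cox7b2 from -0.05 to 0.22, Atp5g2 from -0.06 to 0.19, Cox7a1 from -0.12 to 0.31 and Cox4i2 from -0.24 to 0.00. The cause was not tested. Same-numbered animals of the groups did not deviate together (r = -0.127, 0.0157 and 0.0499 for numbers 1 to 3). The labels give no pairing, and the number was not used as one in the main fit. Correlations this few cannot show whether animals shared a litter or a batch. With the replicate block 6 genes and 0 members were called. Signal near the control median limits Atp5k, Cox6a2, Cox6b2 and Cox7b2, and the lowest readings of Cox8b, Cox8c and Cox7a1 were not far above it.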
